A study of Mus musculus with 32 samples.

Results

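Gene expression in whole kidneys of female mice at Day 2 after cisplatin was set against that of female mice at Day 0. The comparison rests on 8 of the 32 RNA-seq libraries of the study, the 4 female Day 2 columns and the 4 female Day 0 columns of the deposited table of read counts, chosen by their labels of sex and day. Each library came from the kidney tissue of 1 wt mouse of the C57bl/6 strain. The animals were between 6 and 8 weeks of age, and the Day 2 mice had received a single intraperitoneal dose of 20 mg/kg cisplatin. The sample labels list cisplatin as the treatment of the Day 0 females too, whereas the study's text calls the Day 0 animals healthy. Both groups carry the same genotype, strain and sex, so the labelled difference between them is the day. Blood measures of kidney function of these particular mice were not analysed here. The table holds 54532 genes, of which 16541 passed a filter on low counts and were tested.

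Cisplatin is a platinum drug that forms crosslinks in DNA, and its use in patients is limited by injury to the proximal tubule, which takes the drug up from blood. DNA damage stabilizes the transcription factor p53, which switches on genes for cell cycle arrest, repair and cell death. Injured tubules also lose transporters and release chemokines, and the markers NGAL (Lcn2) and KIM-1 (Havcr1) are widely used to follow that injury.

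The libraries held between 21919618 and 35961325 counts on genes, and the Day 0 mice were further apart than the Day 2 mice. On the first principal component, which held 63.2% of the variance, the Day 0 mice ranged from -183.5 to 42.7 and the Day 2 mice from 49.6 to 64.6. The kidney markers Slc34a1 (the phosphate transporter of the proximal tubule), Lrp2 (megalin), Umod (uromodulin of the thick limb) and Aqp2 (the water channel of the collecting duct) were detected in all 8 libraries. Day 0 mouse 2 stood apart through liver transcripts. The summed hepatocyte list took 1.94% of its counts, against 0.0313% to 0.0695% in the other Day 0 mice and 0.0376% to 0.113% at Day 2. Day 0 mouse 3 had the fewest genes with a count, 16265 against 22050 to 24918 in the other 7 libraries. Day 0 mouse 4 correlated with the Day 2 libraries at 0.945 to 0.969 and with its own group at 0.845 to 0.947, over the log2 CPM (a count scaled to a fixed library size) of all genes tested. The Day 0 libraries also held 221, 5, 44 and 66 counts of 4 Y-linked genes, in the order of mice 1 to 4, while the other 12 female libraries of the study held 0 and the 4 male Day 0 libraries between 1397 and 2568. The Y-linked counts go against RNA from females alone in the Day 0 libraries, so their purity is in doubt. Whether RNA of other libraries was mixed in was not tested, and results are therefore given below with each mouse left out.

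**Figure D1:**
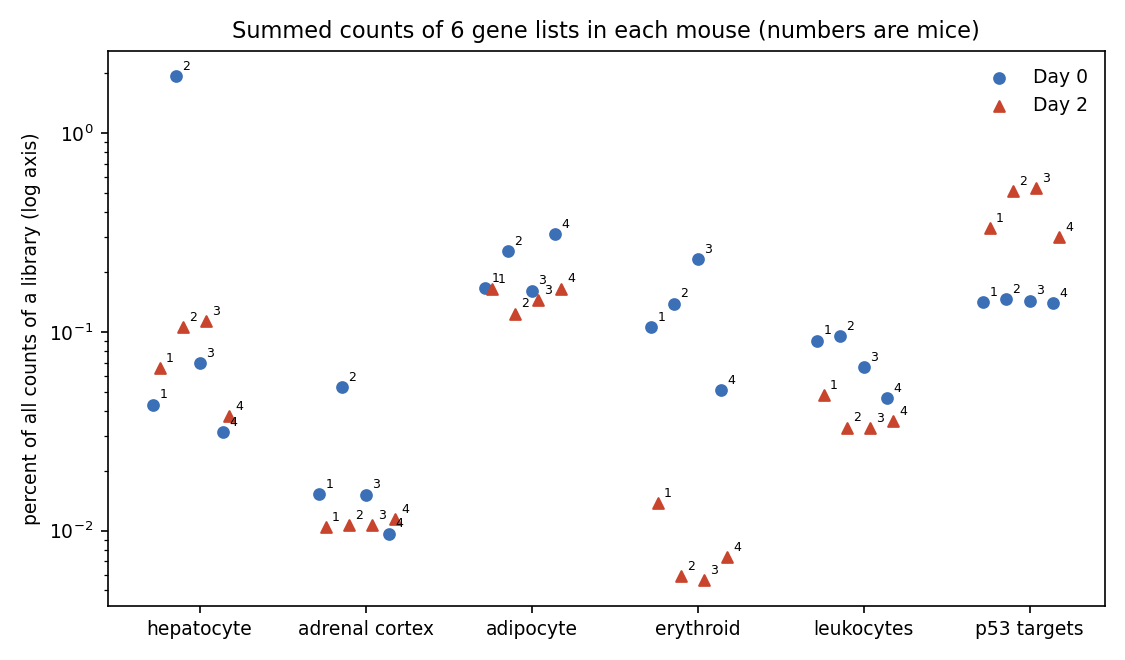
Percent of each library's counts taken by 6 gene lists, on a log axis, with 1 point per mouse (4 at Day 0, 4 at Day 2). The hepatocyte point of Day 0 mouse 2 (1.94%) lies above all other mice, and the p53 target and erythroid points of the groups do not overlap.

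At Day 2, 320 of the 16541 genes tested (1.93%) had an adjusted p under 0.05 (Benjamini-Hochberg) in the quasi-likelihood test of edgeR. Of these, 128 rose (0.774%) and 192 fell (1.16%). A differentially expressed gene (DEG) was further required to have an absolute log2 fold change over 1.5, which left 234 DEGs (1.41%), 88 of them upregulated (0.532%) and 146 downregulated (0.883%). The median log2 fold change of all genes tested was 0.03, and 4189 genes had an unadjusted p under 0.05. In all 234 DEGs, the 4 Day 2 values lay outside the range of the 4 Day 0 values. The same held for 2515 of all genes tested (15.2%), of which 1375 were higher (8.31%) and 1140 lower (6.89%) at Day 2.

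These counts depended on single mice. The number of DEGs was 1766, 799 of them up and 967 down, without Day 0 mouse 4, which lay nearest to the Day 2 libraries. It was 253 without Day 0 mouse 3. Over all genes, 4776 passed in the fit without Day 0 mouse 4, against 320 with all 8 mice. List counts from that fit, given below, are to be read against that larger number. Leaving out Day 0 mouse 1 gave 45 DEGs, Day 0 mouse 2 gave 28, Day 2 mouse 1 gave 34, Day 2 mouse 2 gave 23, Day 2 mouse 3 gave 21 and Day 2 mouse 4 gave 145. In these fits between 80 and 88 of the 88 upregulated genes and between 117 and 145 of the 146 downregulated genes stayed beyond the fold threshold, the lowest numbers without Day 2 mouse 1 and without Day 0 mouse 3. Without Day 0 mice 2 and 3 together, 78 and 79 of them did, and 54 and 48 passed. Of the 128 genes that rose 15 passed in every fit that left out 1 mouse, and of the 192 that fell 6 did. All of these were named for that reason. The highest adjusted p that any of the 108 named passing genes had in those fits was 0.187. The Wald test of DESeq2, which passed 2138 genes, called more members of most lists, such as 29 falls in the respiratory chain, 15 among leukocyte genes, 9 rises among fatty acid genes and 8 among cytokines. Of the genes given below as not passing in edgeR, it called Lcn2, Krt20, Cxcl1, Socs3, Polk, Xpc, Cd68, C1qa, Cpt1a, Cyp4a10 and Acot1, with adjusted p from 0.000582 to 0.0472. Where a gene below lost its call in at least 1 such fit, the highest adjusted p of those 8 fits is given beside it as the left-out p.

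**Figure D2:**
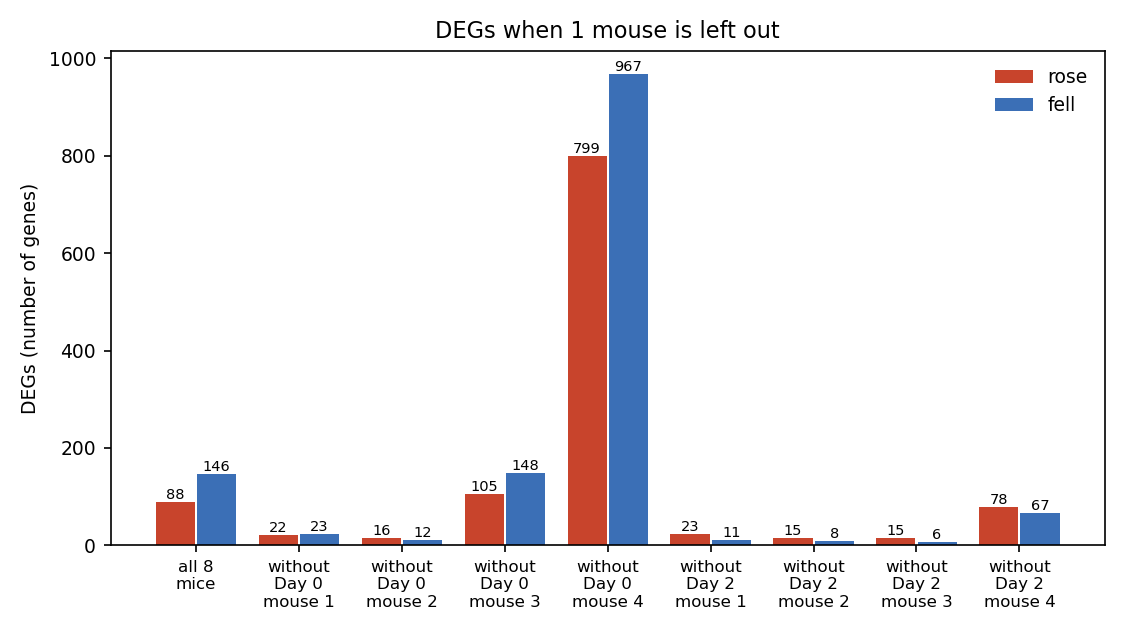
Number of DEGs that rose or fell at Day 2 in the edgeR fit with all 8 mice and with each mouse left out in turn. Bars start at 0, and the fit without Day 0 mouse 4 gives the largest numbers (799 up, 967 down).

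The genes that passed with all mice and in every left-out fit number 15 that rose and 6 that fell. In order of size the 15 were 1700007K13Rik, Cdkn1a, Inka2, Mab21l3, Ces2e, Abcb1b, Aen, Ephx1, Gdf15, Plcd4, Plk2, Tnfrsf10b, Fat1, Sulf2 and Zmat3. The 6 that fell were Hbb-bt, Fhit, Immp2l, Gmds, Alas2 and Thrsp. Among them are 6 p53 targets, a drug pump, a carboxylesterase, an epoxide hydrolase, 3 genes of long genomic span and 2 genes of red blood cells.

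**Figure D3:**
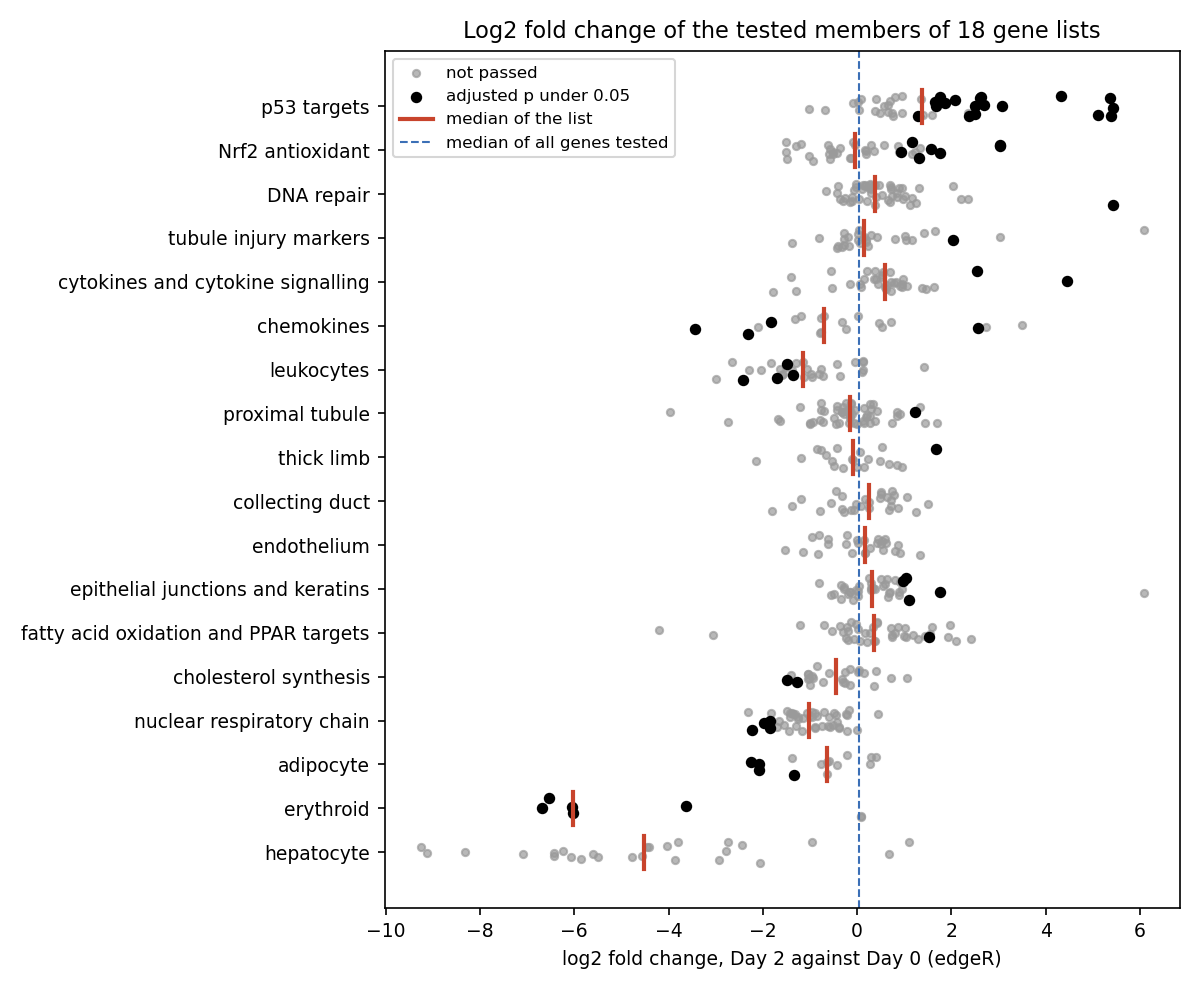
Log2 fold change (Day 2 against Day 0) of the tested members of 18 gene lists, with 1 point per gene, the list's median as a bar and the median of all genes tested (0.03) as a dashed line. The p53 targets lie furthest above the line and the red blood cell genes furthest below it.

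The p53 targets gave the largest group of rises. Of 40 listed targets tested, 18 rose, against 0.774% of all genes, and 0 fell, and 37 had a positive log2 fold change, with a median of 1.37 against 0.03 over all genes. The groups did not overlap for 23 of them, all higher at Day 2, where 8.31% of all genes were higher without overlap. With 1 mouse left out, between 6 and 26 of the targets rose. The count was 6 without Day 0 mouse 1, without Day 0 mouse 2, without Day 2 mouse 2 or without Day 2 mouse 3, and it was 9 without Day 2 mouse 1. It was 16 without Day 0 mouse 3, 26 without Day 0 mouse 4 and 18 without Day 2 mouse 4. The list's share of all counts was 0.142%, 0.146%, 0.144% and 0.140% in the Day 0 mice and 0.332%, 0.510%, 0.529% and 0.301% in the Day 2 mice. The Day 0 mice were nearly level, and Day 2 mice 2 and 3 stood above Day 2 mice 1 and 4.

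Cdkn1a encodes p21, the inhibitor of cyclin-dependent kinases through which p53 arrests the cell cycle, and lies on chromosome 17, 29090976 to 29100727 (GRCm38, plus strand). It was counted at 18.8, 22.4, 8.79 and 11.6 CPM at Day 0 and 339, 370.1, 418 and 101 CPM at Day 2, in the order of mice 1 to 4 as in all series of values below. The groups were far apart, 15.4 ± 6.28 CPM (SD, n = 4) at Day 0 and 307 ± 141 CPM (SD, n = 4) at Day 2, with Day 2 mouse 4 the lowest of the treated mice (log2 fold change 4.32, SE 0.49, adjusted p = 0.004). Mdm2, the ubiquitin ligase that degrades p53, was at 30.1, 23.1, 24.4 and 34.1 CPM at Day 0 and 58.9, 132, 138 and 74.3 CPM at Day 2. Its rise was smaller and the gap between groups narrower (log2 fold change 1.86, SE 0.31, adjusted p = 0.022, left-out p up to 0.0947). Ccng1, the p53-induced cyclin G1, was at 121, 119, 187 and 157 CPM at Day 0 and 424, 1096, 1067 and 730.3 CPM at Day 2 (log2 fold change 2.51, SE 0.35, adjusted p = 0.0118, left-out p up to 0.0606). Plk2, a polo-like kinase, was at 6.47, 7.1, 7.42 and 8.95 CPM at Day 0 and 44.8, 54.9, 57.9 and 27.4 CPM at Day 2 (log2 fold change 2.63, SE 0.27, adjusted p = 0.00382). Sesn2, a sestrin that restrains the growth kinase mTORC1, was at 60.3, 65.3, 62.6 and 68.1 CPM at Day 0 and 228, 153, 152 and 95.7 CPM at Day 2 (log2 fold change 1.29, SE 0.26, adjusted p = 0.0419, left-out p up to 0.15). The lowest Day 2 mouse was mouse 1 or mouse 4 for each of these 5 genes.

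Several targets act in cell death. Gdf15, a secreted cytokine of stressed cells, was at 11.5, 17.3, 9.93 and 18.1 CPM at Day 0 and 81.2, 91.9, 139.6 and 55 CPM at Day 2 (log2 fold change 2.69, SE 0.33, adjusted p = 0.00576). Aen, a nuclease of apoptotic cells, was at 13.1, 6.68, 3.99 and 12.7 CPM at Day 0 and 73.5, 86.2, 96.4 and 52.1 CPM at Day 2 (log2 fold change 3.07, SE 0.39, adjusted p = 0.00684). Tnfrsf10b, the mouse death receptor for TRAIL, was at 2.57, 2.28, 2.45 and 3.72 CPM at Day 0 and 13.4, 19.4, 20.6 and 9.38 CPM at Day 2 (log2 fold change 2.51, SE 0.33, adjusted p = 0.00769). In all 3 the lowest Day 2 mouse, mouse 4, lay above the highest Day 0 mouse by more than the width of the Day 0 range. Bbc3, the BH3-only protein PUMA, was at 5.26, 7.68, 1.26 and 4.16 CPM at Day 0 and 24.4, 27.5, 31.5 and 11.9 CPM at Day 2 (log2 fold change 2.37, SE 0.48, adjusted p = 0.0423, left-out p up to 0.157). Eda2r, a receptor of the TNF family, was at 0.303, 0.418, 0 and 1.1 CPM at Day 0 and 8.46, 31.4, 31.8 and 9.76 CPM at Day 2 (log2 fold change 5.39, SE 0.84, adjusted p = 0.0197, left-out p up to 0.0925). Eda2r had no count in Day 0 mouse 3, and Day 2 mice 2 and 3 stood above the other treated mice. Pidd1, a scaffold of the caspase-2 complex, rose by 1.67 on the log2 scale (SE 0.36, adjusted p = 0.048, left-out p up to 0.177).

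Another 3 targets that rose were near zero at Day 0. Psrc1, which regulates microtubules, was at 0.643, 0.675, 0 and 0.756 CPM at Day 0 and 12.5, 24.9, 31.2 and 6.99 CPM at Day 2 (log2 fold change 5.12, SE 0.74, adjusted p = 0.0142, left-out p up to 0.0669). Ddias, a suppressor of apoptosis after DNA damage, had 4, 4, 0 and 17 counts at Day 0 and 100, 507, 468 and 132 counts at Day 2 (log2 fold change 5.43, SE 0.79, adjusted p = 0.0142, left-out p up to 0.0629). Ckap2, a protein of the spindle, was at 0.265, 0.0643, 0 and 0.315 CPM at Day 0 and 2.72, 9.47, 13.7 and 3.06 CPM at Day 2 (log2 fold change 5.37, SE 0.83, adjusted p = 0.0169, left-out p up to 0.0774). All 3 had no count in Day 0 mouse 3 and were lowest, among treated mice, in mouse 1 or mouse 4. Ckap2 had 7, 2, 0 and 10 counts at Day 0. Ddias and Ckap2 passed the filter on low counts only through the Day 2 mice, so the size of their rise is uncertain. The 18 targets that rose include both. Zmat3, an RNA-binding protein, was at 22.3, 21.1, 29.3 and 22.2 CPM at Day 0 and 114, 108, 118 and 61.7 CPM at Day 2 (log2 fold change 2.08, SE 0.25, adjusted p = 0.00576). Trp53inp1, a nuclear protein linked to autophagy, was at 17, 16.7, 21.2 and 31.7 CPM at Day 0 and 52.9, 197, 196 and 82.6 CPM at Day 2 (log2 fold change 2.61, SE 0.43, adjusted p = 0.0221, left-out p up to 0.0925). Phlda3, a repressor of the kinase Akt, had a log2 fold change of 1.66, SE 0.27, adjusted p = 0.0193, and Dglucy, a D-glutamate cyclase, one of 1.76, SE 0.27, adjusted p = 0.0169 (left-out p up to 0.0925 and 0.0766).

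The other 22 targets tested did not pass. Trp53 itself was at 27.6, 21.6, 14.1 and 24.5 CPM at Day 0 and 48.4, 35.3, 34.2 and 25.1 CPM at Day 2 (log2 fold change 0.70, SE 0.27, adjusted p = 0.142). Bax, which permeabilizes the mitochondrial membrane, was at 74.5, 115, 99.4 and 44.5 CPM at Day 0 and 96.8, 79.9, 93.9 and 65.9 CPM at Day 2 (log2 fold change 0.01, SE 0.29, adjusted p = 0.982), so the groups overlapped throughout. Fas, a death receptor, was at 8.02, 8.16, 9.98 and 7.18 CPM at Day 0 and 8.53, 18.3, 19.6 and 10.4 CPM at Day 2 (log2 fold change 0.77, SE 0.30, adjusted p = 0.148). Polk, a translesion DNA polymerase, was higher in every Day 2 mouse, at 4.54, 2.35, 0.513 and 8.88 CPM at Day 0 and 11.6, 28.9, 27.3 and 16 CPM at Day 2, but its Day 0 mice ranged widely (log2 fold change 2.35, SE 0.67, adjusted p = 0.0744). Rrm2b, the p53-induced subunit of ribonucleotide reductase, was at 12.4, 11.2, 14.2 and 21.4 CPM at Day 0 and 9.91, 23.5, 22.4 and 21.5 CPM at Day 2 (log2 fold change 0.39, SE 0.32, adjusted p = 0.456).

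**Figure D4:**
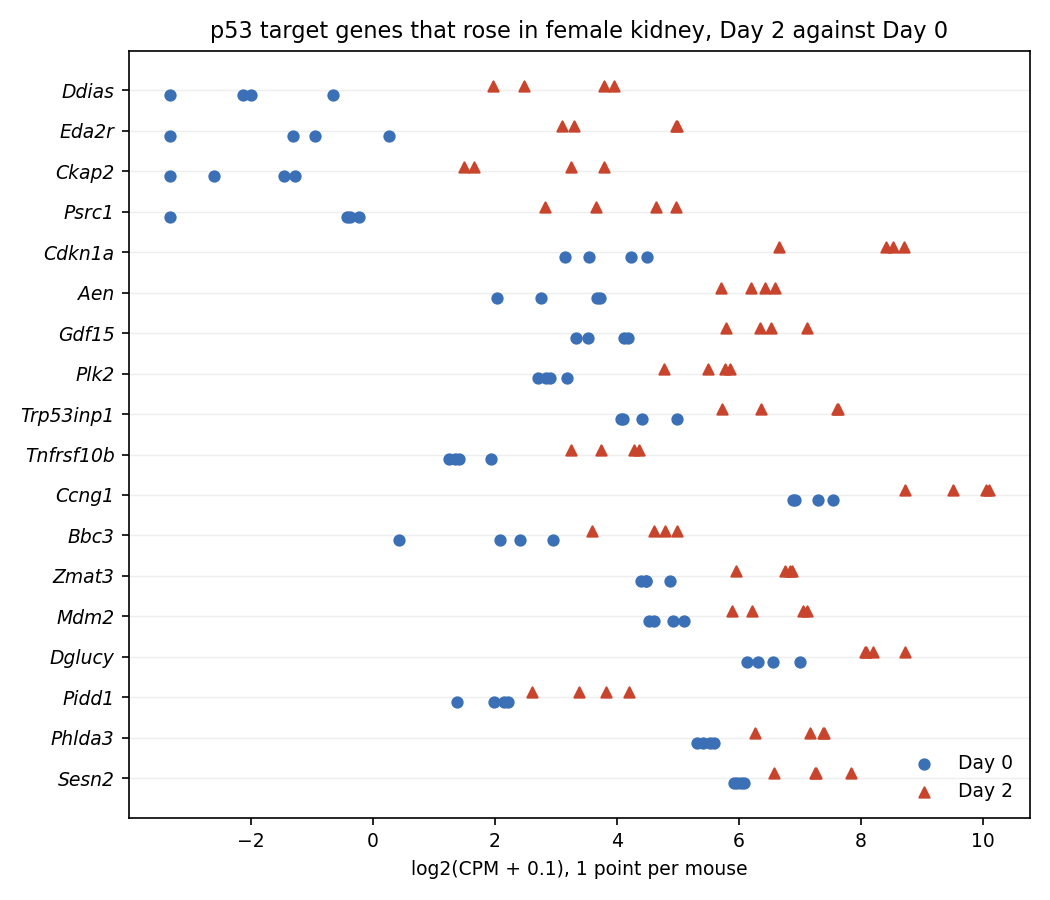
Expression of the 18 p53 targets that rose, as log2(CPM + 0.1), with 1 point per mouse and 1 row per gene. The Day 0 and Day 2 points do not overlap in any of the 18 genes, and Day 2 mouse 4 is often the lowest treated mouse.

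Promoters were read to show what lies at the start of the targets that rose. RefSeq windows of 300 bases (build GRCm38.p6) were found for 15 of the 18, and were searched on both strands for the p53 element and for the decamer of which it is built. The full p53 element was found in the windows of 20 of 27025 genes (0.074%) and in 1 of the 15, Cdkn1a. A decamer, alone or within the full element, was found for 9.55% of all genes, for 5 of the 15 that rose (33.3%) and for 6 of 18 targets that did not pass (33.3%). The share that holds a decamer was thus the same in both sets of targets. The 5 promoter stretches are shown because they carry the matched letters, which are in capitals and are a description, not a proof of binding. They lie at chr17:29090876-29090967 for Cdkn1a and chr7:78895917-78895966 for Aen (plus strand), and at chr11:40755442-40755491 for Ccng1, chr8:22185993-22186042 for Ckap2 and chr10:117710915-117710964 for Mdm2 (minus strand).
Cdkn1a, full element, -73 from the start: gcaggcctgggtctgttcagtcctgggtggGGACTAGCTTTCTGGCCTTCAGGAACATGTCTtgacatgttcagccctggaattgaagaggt
Aen, decamer: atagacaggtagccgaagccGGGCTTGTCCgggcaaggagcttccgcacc
Ccng1, decamer: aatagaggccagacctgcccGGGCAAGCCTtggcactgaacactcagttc
Ckap2, decamer: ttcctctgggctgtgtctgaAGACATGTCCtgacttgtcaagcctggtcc
Mdm2, decamer: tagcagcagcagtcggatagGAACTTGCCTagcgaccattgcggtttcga
Of these 5 genes, Cdkn1a and Aen passed in every left-out fit.

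Beyond the p53 list, 9 further genes rose in every left-out fit, 6 of which are given here and 3, of drug metabolism, below. Inka2, an inhibitor of the kinase PAK4, was at 0.87, 1.16, 2.05 and 1.67 CPM at Day 0 and 19.8, 30.3, 34.9 and 14.3 CPM at Day 2 (log2 fold change 4.12, SE 0.39, adjusted p = 0.00259). 1700007K13Rik was at 0.681, 0.9, 0.742 and 0.662 CPM at Day 0 and 12.4, 23.7, 30.2 and 6.33 CPM at Day 2 (log2 fold change 4.60, SE 0.49, adjusted p = 0.00382). Mab21l3 was at 1.02, 0.514, 0.799 and 1.32 CPM at Day 0 and 12.7, 16, 18.5 and 6.82 CPM at Day 2 (log2 fold change 3.88, SE 0.42, adjusted p = 0.00382). These 3 genes lay at or below 2.05 CPM in the Day 0 mice and above 6 CPM in the Day 2 mice. Fat1, a giant atypical cadherin, was at 31.8, 21.2, 19.9 and 41.5 CPM at Day 0 and 163, 176, 156 and 98.2 CPM at Day 2 (log2 fold change 2.37, SE 0.30, adjusted p = 0.00684). Sulf2, a sulfatase that trims extracellular heparan sulfate, was at 18.8, 21.2, 22.1 and 25.5 CPM at Day 0 and 123, 98.9, 109.5 and 63.5 CPM at Day 2 (log2 fold change 2.17, SE 0.25, adjusted p = 0.004). Plcd4, a phospholipase C, was at 1.36, 1.48, 1.94 and 2.02 CPM at Day 0 and 8.38, 13.1, 13.3 and 7.32 CPM at Day 2 (log2 fold change 2.63, SE 0.32, adjusted p = 0.00576). Day 2 mouse 4 was the lowest treated mouse for all 3.

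The largest fitted rises were of genes with few or no counts at Day 0. Zfp365 was at 0.0378, 0.321, 0 and 0.347 CPM at Day 0 and 3.14, 12.6, 15.1 and 1.98 CPM at Day 2 (log2 fold change 5.39, SE 0.94, adjusted p = 0.0279, left-out p up to 0.0979). Gtse1, a microtubule protein that binds p53, was at 0.416, 0.289, 0 and 1.42 CPM at Day 0 and 10.3, 18, 22.7 and 6.66 CPM at Day 2 (log2 fold change 4.69, SE 0.82, adjusted p = 0.0301, left-out p up to 0.129). Ugt1a10, a glucuronosyltransferase that shares exons with other genes of its locus, was at 0.492, 0.0643, 0 and 1.54 CPM at Day 0 and 23.5, 21.9, 20.4 and 5.99 CPM at Day 2 (log2 fold change 5.02, SE 0.98, adjusted p = 0.0432, left-out p up to 0.175). In all 3 genes Day 2 mouse 4 was the lowest treated mouse. Dscaml1, an adhesion molecule, was at 0.378, 0.0964, 0 and 0.756 CPM at Day 0 and 10.5, 3.43, 4.65 and 4.84 CPM at Day 2 (log2 fold change 4.17, SE 0.80, adjusted p = 0.0362, left-out p up to 0.122). Gm9949 had 5, 5, 0 and 3 counts at Day 0 and 65, 85, 110 and 37 counts at Day 2 (left-out p up to 0.0956). It passed the filter on low counts only through the Day 2 mice, so no fold is given. For 9530053A07Rik, Eps8l3 and Sec14l5 the Day 0 values were mostly at or under 3 counts, and their Day 2 levels ranged from 0.413 to 6.13 CPM, 0.661 to 1.38 CPM and 1.24 to 4.52 CPM. No fold is given for them, and their left-out p was up to 0.133, 0.175 and 0.163.

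Genes of drug and electrophile metabolism rose in part. In the list of targets of Nrf2, the transcription factor of the antioxidant response, 7 of 37 tested members rose and 0 fell, but the median was -0.04, next to 0.03 over all genes, of which 0.774% rose. Beside the 7 rises, 19 of the 37 had a negative log2 fold change, among them the glutathione peroxidases Gpx3 and Gpx4 (both -1.51, not passing). With 1 mouse left out between 1 and 10 members rose, with 1 without Day 0 mouse 2, Day 2 mouse 2 or Day 2 mouse 3 and 10 without Day 0 mouse 4. In that last fit 8 members also fell.

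Ephx1, the microsomal epoxide hydrolase, was at 70.3, 82.3, 30.3 and 64.1 CPM at Day 0 and 827, 444, 509 and 258 CPM at Day 2 (log2 fold change 3.04, SE 0.42, adjusted p = 0.0114). Gclc, the catalytic subunit of the rate-limiting step of glutathione synthesis, was at 156, 99.3, 134 and 138 CPM at Day 0 and 299, 554, 568 and 356 CPM at Day 2 (log2 fold change 1.75, SE 0.29, adjusted p = 0.0221, left-out p up to 0.0965). Nqo1, a quinone reductase, was at 41.1, 40.4, 40.1 and 23 CPM at Day 0 and 128, 96.4, 122 and 83.6 CPM at Day 2 (log2 fold change 1.57, SE 0.25, adjusted p = 0.0193, left-out p up to 0.0937), with Day 0 mouse 4 the lowest of all 8. Gsta1, a glutathione transferase with a close paralog in Gsta2, was at 2.5, 1.38, 1.48 and 1.26 CPM at Day 0 and 7.38, 17.1, 22.7 and 6.99 CPM at Day 2 (log2 fold change 3.03, SE 0.46, adjusted p = 0.0159, left-out p up to 0.0647). Nfe2l2, the gene of Nrf2, was at 68.9, 54.6, 55.6 and 68.7 CPM at Day 0 and 96.6, 133, 137 and 105 CPM at Day 2 (log2 fold change 0.93, SE 0.21, adjusted p = 0.0499, left-out p up to 0.183). All 5 were higher in each Day 2 mouse than in any Day 0 mouse. Srxn1 (sulfiredoxin) and Txnrd1 (thioredoxin reductase) had log2 fold changes of 1.31 and 1.17, with adjusted p = 0.0439 and 0.0479 (left-out p up to 0.169 and 0.179). Hmox1, the heme oxygenase, was at 17.7, 15.4, 2.28 and 15.8 CPM at Day 0 and 36.2, 35, 42.3 and 16.7 CPM at Day 2 (log2 fold change 1.34, SE 0.52, adjusted p = 0.141).

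Ces2e, a carboxylesterase, was at 14.4, 27.4, 15.6 and 9.23 CPM at Day 0 and 199, 208, 227 and 78.8 CPM at Day 2 (log2 fold change 3.42, SE 0.42, adjusted p = 0.00576). Abcb1b, a P-glycoprotein that pumps drugs out of cells, was at 14, 10.9, 8.16 and 20.4 CPM at Day 0 and 83.4, 191, 143 and 61.9 CPM at Day 2 (log2 fold change 3.16, SE 0.41, adjusted p = 0.00771). It was the 1 gene of 24 tested for uptake, export and activation of cisplatin that rose, against 0.774% of all genes, and 0 fell (median 0.20, -0.02 without Day 2 mouse 1 and 0.41 without Day 0 mouse 2). The list had 7 rises and 1 fall without Day 0 mouse 4, a fit in which 4776 genes passed against 320 with all 8 mice. Slc22a2, the transporter OCT2 that brings cisplatin into the proximal tubule, was at 210.5, 209, 156 and 186 CPM at Day 0 and 264, 119, 125 and 184 CPM at Day 2 (log2 fold change -0.14, SE 0.29, adjusted p = 0.789). The exporter Slc47a1 (MATE1) was at 307, 208, 136 and 416 CPM at Day 0 and 385, 268, 253 and 335 CPM at Day 2 (log2 fold change 0.22, SE 0.34, adjusted p = 0.71). The values of the groups overlapped for both transporters.

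The usual markers of tubule injury did not pass in edgeR at Day 2, although the Wald test of DESeq2 called Lcn2 and Krt20 (adjusted p = 0.00552 and 0.000582). Of 29 listed injury markers tested, 1 rose, against 0.774% of all genes, and 0 fell, with a median of 0.14. These counts were 6 and 2 without Day 0 mouse 4 and 1 and 0 without Day 2 mouse 4, and without each of the other 6 mice 0 passed, with medians from 0.05 to 0.25 in these fits. Lcn2 and Krt20 passed without Day 0 mouse 4 (adjusted p = 0.0322 and 0.0268), and DESeq2 called 6 rises and 1 fall in the list. Lcn2 was at 5.83, 7.26, 2.97 and 2.43 CPM at Day 0 and 10.4, 17.7, 23.1 and 7.4 CPM at Day 2 (log2 fold change 1.66, SE 0.45, adjusted p = 0.0638), with every Day 2 mouse above every Day 0 mouse. Havcr1 was at 0.492, 0.161, 1.94 and 0.0315 CPM at Day 0 and 1.03, 8.22, 10.1 and 0.91 CPM at Day 2 (log2 fold change 3.03, SE 1.15, adjusted p = 0.141), high in Day 2 mice 2 and 3 and within the Day 0 range in the other Day 2 mice. Krt20, a keratin of injured tubules, was at 0.416, 0.707, 0 and 1.58 CPM at Day 0 and 4.63, 74.3, 109 and 5.29 CPM at Day 2 (log2 fold change 6.08, SE 1.36, adjusted p = 0.0537). Krt20 split the treated mice in the same way, with mice 2 and 3 more than 14 times above mice 1 and 4. The marker that rose was Tnfrsf12a, the receptor of TWEAK, at 21.7, 18.5, 11.4 and 13.4 CPM at Day 0 and 54.7, 78.3, 112 and 22.3 CPM at Day 2 (log2 fold change 2.04, SE 0.43, adjusted p = 0.0457, left-out p up to 0.167). Spp1 (osteopontin) and Clu (clusterin) had log2 fold changes of 0.04 (adjusted p = 0.957) and -0.42 (adjusted p = 0.408).

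Cytokine and adhesion genes were changed in a few members. In the list of cytokines and their signalling 2 of 35 rose and 0 fell, with a median of 0.59, and the groups did not overlap for 7 members, all higher, where over all genes 0.774% rose and 8.31% were higher without overlap. Lif, a cytokine of the interleukin-6 family, was at 0.341, 0.353, 0 and 0.473 CPM at Day 0 and 5.2, 8.25, 10.4 and 3.31 CPM at Day 2 (log2 fold change 4.45, SE 0.68, adjusted p = 0.0162, left-out p up to 0.0776). Icam1, the adhesion molecule on which leukocytes arrest, was at 7.87, 2.63, 2.8 and 12 CPM at Day 0 and 44.6, 40.1, 45.7 and 18.6 CPM at Day 2 (log2 fold change 2.55, SE 0.51, adjusted p = 0.0405, left-out p up to 0.143). Socs3, the feedback inhibitor of that signalling, was at 3.48, 4.72, 2.51 and 2.74 CPM at Day 0 and 8.95, 12.7, 15.1 and 5 CPM at Day 2 (log2 fold change 1.63, SE 0.38, adjusted p = 0.0514). The count of rises in this list was 12 without Day 0 mouse 4, 4 without Day 2 mouse 4, 2 without Day 0 mouse 3, and 0 without Day 0 mouse 1 or 2 or Day 2 mouse 1, 2 or 3. Tnf was near the limit of detection, with 4, 0, 10 and 5 counts at Day 0 and 4, 2, 8 and 1 counts at Day 2, and was not tested. Il1rn, the antagonist of the interleukin-1 receptor, had 4, 22, 0 and 8 counts at Day 0 and 4, 37, 66 and 1 counts at Day 2, high in Day 2 mice 2 and 3, and was not tested either. Il13ra1, an interleukin-13 receptor, was at 34.3, 30.7, 43.7 and 35.6 CPM at Day 0 and 19.4, 44.7, 46 and 43.5 CPM at Day 2 (log2 fold change 0.09, SE 0.28, adjusted p = 0.861). The related Il13ra2 had 9 counts in Day 0 mouse 2 and 0 in all other libraries.

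Among chemokines, 1 of 19 tested rose and 3 fell, against 0.774% and 1.16% of all genes, with a median of -0.71, which was -0.33 without Day 0 mouse 2, -0.37 without mouse 4, -0.38 without mouse 1 and -0.44 without mouse 3. Cxcl10, which draws T cells, was at 3.06, 3.86, 1.65 and 2.43 CPM at Day 0 and 12.9, 21.8, 23.5 and 6.95 CPM at Day 2 (log2 fold change 2.56, SE 0.42, adjusted p = 0.022, left-out p up to 0.0956). Cxcl1, the neutrophil chemokine, was at 0.265, 0.675, 0 and 1.29 CPM at Day 0 and 1.45, 9.65, 13.7 and 1.53 CPM at Day 2 (log2 fold change 3.50, SE 1.02, adjusted p = 0.0795), higher in every Day 2 mouse and again highest in mice 2 and 3. It passed in the DESeq2 Wald test (adjusted p = 0.033) and without Day 0 mouse 4 (adjusted p = 0.0262). Ccl20 had 0, 0, 0 and 0 counts at Day 0 and 6, 22, 20 and 5 counts at Day 2 and was removed by the filter on low counts before the edgeR test. The Wald test of DESeq2, run without that filter, called it (log2 fold change 5.93, adjusted p = 0.00132). Cxcl9, which shares its receptor with Cxcl10, fell and was at 2.08, 7.07, 3.71 and 2.71 CPM at Day 0 and 0.459, 0.838, 0.527 and 1.28 CPM at Day 2 (log2 fold change -2.32, SE 0.52, adjusted p = 0.0498, left-out p up to 0.18). Ccl8 fell as well and was at 1.4, 1.25, 2.45 and 0.504 CPM at Day 0 and 0.23, 0.027, 0.132 and 0.124 CPM at Day 2 (log2 fold change -3.43, SE 0.74, adjusted p = 0.0479, left-out p up to 0.177). The last that fell, Ccl27a, was at 20.1, 30.1, 40.6 and 10.2 CPM at Day 0 and 6.39, 6.95, 8.99 and 6.12 CPM at Day 2 (log2 fold change -1.82, SE 0.38, adjusted p = 0.0444, left-out p up to 0.173). Ccl6, a chemokine of myeloid cells, was at 7.3, 6.14, 4.39 and 6.58 CPM at Day 0 and 9.53, 6.27, 9.59 and 8.6 CPM at Day 2 (log2 fold change 0.47, SE 0.27, adjusted p = 0.29). Chemokines thus moved in both directions, but with an offset for transcript length 1 rose and 0 fell, the adjusted p of the 3 falls being 0.0522 to 0.0646. Without Day 0 mouse 4 the list had 4 rises and 5 falls, without Day 0 mouse 3 it had 1 and 2, without Day 2 mouse 4 it had 1 and 0, and without each of the other 5 mice it had 0 of either.

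Of 31 leukocyte genes tested 0 rose and 4 fell, against 1.16% of all genes, 5 had a positive log2 fold change, with a median of -1.15, and the groups did not overlap for 10 members, all lower, where 6.89% of all genes were lower without overlap. In bulk tissue fewer cells of a type and less RNA per cell cannot be told apart. Lyz2, lysozyme of myeloid cells, was at 49.9, 50.3, 38.2 and 42.8 CPM at Day 0 and 13.4, 10.3, 13.4 and 18.9 CPM at Day 2 (log2 fold change -1.70, SE 0.23, adjusted p = 0.0114, left-out p up to 0.0698). H2-Aa, an MHC class II chain, was at 106, 135, 77.1 and 57.5 CPM at Day 0 and 46.2, 26.1, 26 and 36.1 CPM at Day 2 (log2 fold change -1.48, SE 0.31, adjusted p = 0.0433, left-out p up to 0.175). Fcer1g, a signalling chain of Fc receptors, was at 10.7, 14, 9.36 and 6.3 CPM at Day 0 and 4.4, 3.81, 3.56 and 3.89 CPM at Day 2 (log2 fold change -1.37, SE 0.29, adjusted p = 0.0474, left-out p up to 0.18). Nkg7, a granule protein of killer cells, was at 1.97, 1.7, 4.16 and 1.17 CPM at Day 0 and 0.421, 0.379, 0.395 and 0.455 CPM at Day 2 (log2 fold change -2.43, SE 0.52, adjusted p = 0.0461, left-out p up to 0.18). C1qa, the complement chain made by resident macrophages, was at 42, 88.6, 107 and 22.6 CPM at Day 0 and 26.9, 12.5, 16.5 and 17.7 CPM at Day 2 (log2 fold change -1.82, SE 0.45, adjusted p = 0.0546). Ptprc (CD45), which all leukocytes carry, was at 6.43, 2.86, 4.51 and 11.4 CPM at Day 0 and 3.1, 6.49, 4.45 and 5.42 CPM at Day 2 (log2 fold change -0.37, SE 0.43, adjusted p = 0.602). Cd68 was at 4.24, 4.95, 1.54 and 3.65 CPM at Day 0 and 6.89, 10.7, 17.1 and 4.3 CPM at Day 2 (log2 fold change 1.43, SE 0.47, adjusted p = 0.0977). Most of the list was lower, with 26 of 31 values negative and medians from -1.37 to -1.05 in the left-out fits, but Ptprc and Cd68 overlapped between groups. With an offset for transcript length 2 fell, and Fcer1g and Nkg7 did not pass (adjusted p = 0.0645 and 0.0653). The number that fell was 15 without Day 0 mouse 4, 5 without Day 0 mouse 3, 1 without Day 0 mouse 1 or Day 2 mouse 4, and 0 without Day 0 mouse 2 or Day 2 mouse 1, 2 or 3.

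Genes of nephron segments were largely without calls with all 8 mice. Without Day 0 mouse 4, 7 proximal tubule genes rose and 5 fell, 2 thick limb genes rose and 6 fell, 5 distal tubule genes rose and 6 fell, and 6 collecting duct genes rose and 3 fell. Over all genes 4776 passed in that fit, against 320 with all 8 mice. In the other left-out fits these lists had at most 1 rise and 1 fall each, and the medians stayed between -0.42 and 0.27. Of 55 proximal tubule genes 1 rose and 0 fell (median -0.15), where over all genes 0.774% rose and 1.16% fell. Slc34a1 was at 4789.6, 4954, 4549 and 6760 CPM at Day 0 and 6053, 1818, 1444 and 3366 CPM at Day 2 (log2 fold change -0.73, SE 0.47, adjusted p = 0.342), below every Day 0 mouse in Day 2 mice 2, 3 and 4 and within the Day 0 range in mouse 1. Lrp2 was at 1324, 1071, 1541 and 1641 CPM at Day 0 and 1402, 999, 745 and 1393 CPM at Day 2 (log2 fold change -0.30, SE 0.31, adjusted p = 0.568). The member that rose was Slc13a1, the sodium sulfate cotransporter, at 236, 178, 201 and 263 CPM at Day 0 and 627, 533, 529 and 369 CPM at Day 2 (log2 fold change 1.23, SE 0.26, adjusted p = 0.0461, left-out p up to 0.173). Slc7a13, a proximal amino acid transporter, was at 63.1, 3.76, 4.79 and 5.8 CPM at Day 0 and 1.3, 1.05, 1.05 and 1.49 CPM at Day 2 (log2 fold change -3.98, SE 0.97, adjusted p = 0.0569), a difference that rests largely on Day 0 mouse 1. Slc22a28, of the organic anion transporter family, fell and was at 45.1, 22.6, 30.1 and 27.9 CPM at Day 0 and 6.05, 3.14, 2.77 and 12.4 CPM at Day 2 (log2 fold change -2.37, SE 0.46, adjusted p = 0.0387, left-out p up to 0.152).

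Over all genes 0.774% rose and 1.16% fell, beside which the counts of the next 3 lists are set. In the thick limb list 1 of 21 rose and 0 fell (median -0.08). Casr, the calcium-sensing receptor, was the member that rose, at 11, 8.26, 5.13 and 11.9 CPM at Day 0 and 33.6, 28.4, 23.2 and 31 CPM at Day 2 (log2 fold change 1.68, SE 0.28, adjusted p = 0.0235, left-out p up to 0.0947). Umod was at 1810.2, 1065, 612 and 329 CPM at Day 0 and 2373, 1666, 1588 and 1721 CPM at Day 2 (log2 fold change 0.95, SE 0.47, adjusted p = 0.233). Slc12a1 (NKCC2) was at 669.7, 492, 607 and 176 CPM at Day 0 and 581, 999, 714 and 811 CPM at Day 2 (log2 fold change 0.68, SE 0.39, adjusted p = 0.3), with Day 0 mouse 4 the lowest of all 8 for both. Among 27 genes of the distal tubule 1 rose and 1 fell (median -0.13). Trpv6, a calcium channel, was at 1.7, 1.7, 0.742 and 1.45 CPM at Day 0 and 5.93, 5.73, 6.33 and 2.52 CPM at Day 2 (log2 fold change 1.86, SE 0.41, adjusted p = 0.0498, left-out p up to 0.18). Pvalb (parvalbumin) was at 73.8, 145, 291 and 40.8 CPM at Day 0 and 20.2, 9.9, 14.9 and 22.5 CPM at Day 2 (log2 fold change -3.03, SE 0.56, adjusted p = 0.0346, left-out p up to 0.152). Slc12a3 (the thiazide-sensitive cotransporter NCC) was at 672, 763, 530.2 and 717 CPM at Day 0 and 531, 274, 246 and 457 CPM at Day 2 (log2 fold change -0.83, SE 0.31, adjusted p = 0.133). In the collecting duct list 0 of 29 passed in either direction (median 0.26), and Aqp2 was at 934, 1277, 1388 and 511 CPM at Day 0 and 1103, 467, 391 and 432 CPM at Day 2 (log2 fold change -0.78, SE 0.43, adjusted p = 0.272).

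Genes of cell junctions rose in 4 of 38 tested members and fell in 0, with a median of 0.32, and 13 members were higher without overlap. Over all genes 0.774% rose and 8.31% were higher without overlap. All 4 are parts of desmosomes or tight junctions. Dsg2, a desmosomal cadherin, was at 5.22, 6.23, 3.14 and 5.86 CPM at Day 0 and 10.8, 21.5, 21.1 and 15.4 CPM at Day 2 (log2 fold change 1.75, SE 0.31, adjusted p = 0.0301, left-out p up to 0.137). Dsp (desmoplakin) was at 22.2, 18.4, 28.5 and 28.1 CPM at Day 0 and 43, 65, 52.1 and 50 CPM at Day 2 (log2 fold change 1.11, SE 0.23, adjusted p = 0.0419, left-out p up to 0.175). Ocln (occludin) was at 15.1, 12.6, 11.1 and 14.7 CPM at Day 0 and 22.1, 32.3, 31.7 and 23.6 CPM at Day 2 (log2 fold change 1.04, SE 0.22, adjusted p = 0.0461, left-out p up to 0.18). Ppl (periplakin) was at 10.3, 10.2, 11.8 and 10.6 CPM at Day 0 and 16.9, 26.6, 20.5 and 19.9 CPM at Day 2 (log2 fold change 0.97, SE 0.22, adjusted p = 0.0498, left-out p up to 0.187). With an offset for transcript length Dsg2 alone rose, while Dsp, Ocln and Ppl did not pass (adjusted p = 0.0992, 0.0653 and 0.14). The keratins Krt8 and Krt18, which pair in simple epithelia, had log2 fold changes of 0.03 and -0.27 (adjusted p = 0.965 and 0.601). The number that rose was 10 without Day 0 mouse 4, 2 without Day 0 mouse 3, 1 without Day 2 mouse 4 and 0 without each of the other 5 mice.

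Among the genes that fell with all 8 mice, those with a long genomic span stood out, and this grouping was made after their values were seen. Of 132 protein-coding genes that span over 500 kb, 10 fell (7.58%) and 1 rose (0.758%), whereas of all protein-coding genes tested 150 of 14221 fell (1.05%) and 123 rose (0.865%). The share that fell was 2.96% (17 of 575) between 200 and 500 kb, 0.249% (3 of 1207) between 100 and 200 kb, 0.364% (15 of 4122) between 30 and 100 kb, 0.702% (33 of 4700) between 10 and 30 kb and 2.07% (72 of 3485) up to 10 kb. The median log2 fold change of genes over 500 kb was -0.28, 92 of the 132 had a negative value, and 25 (18.9%) were lower without overlap, against 6.89% of all genes. With an offset for transcript length the median was -0.60 and 12 of these genes fell, and without Day 0 mouse 4 the median was -0.13 and 12 rose. The number that fell was 25 without Day 0 mouse 4, 11 without Day 0 mouse 3, 9 without Day 2 mouse 4, 4 without Day 2 mouse 1 and 3 without each of the other 4 mice. Beside the 25 of 132, the fit without Day 0 mouse 4 had 1009 of 3485 genes up to 10 kb that fell. It had 661 of 4700 between 10 and 30 kb, 248 of 4122 between 30 and 100 kb and 67 of 575 between 200 and 500 kb. The longest genes thus did not hold the largest share in that fit. In males at Day 2 the median of genes over 500 kb was 0.12.

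Fhit, a diadenosine triphosphatase that covers a common fragile site, spans 1611.9 kb on chromosome 14, 9550092 to 11162035 (GRCm38, minus strand). It had 241, 443, 187 and 242 counts at Day 0 and 1, 5, 3 and 3 counts at Day 2, or 9.12, 14.2, 10.7 and 7.62 CPM at Day 0 and 0.0383, 0.135, 0.0988 and 0.124 CPM at Day 2, and its adjusted p was the smallest of the named genes (log2 fold change -6.63, SE 0.44, adjusted p = 0.000198). Immp2l, a peptidase of the inner mitochondrial membrane (931.5 kb), was at 4.77, 9.96, 9.53 and 4.16 CPM at Day 0 and 0.306, 0.162, 0.231 and 0.496 CPM at Day 2 (log2 fold change -4.58, SE 0.50, adjusted p = 0.00382). Gmds, which makes GDP-fucose from GDP-mannose (519.2 kb), was at 20, 19.2, 42 and 12.1 CPM at Day 0 and 2.03, 1.76, 1.48 and 1.61 CPM at Day 2 (log2 fold change -3.76, SE 0.39, adjusted p = 0.00382). In these 3 genes the highest Day 2 mouse was at least 5 times below the lowest Day 0 mouse. Dpyd, the first enzyme of pyrimidine breakdown (870.8 kb), was at 27.3, 34.4, 15.2 and 76.7 CPM at Day 0 and 4.78, 4.98, 4.18 and 8.6 CPM at Day 2 (log2 fold change -2.77, SE 0.47, adjusted p = 0.0236, left-out p up to 0.116).

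Wwox, an oxidoreductase that also covers a fragile site (913.1 kb), was at 10.8, 12.6, 6.45 and 11.2 CPM at Day 0 and 4.21, 4.11, 3.46 and 4.3 CPM at Day 2 (log2 fold change -1.35, SE 0.28, adjusted p = 0.0433, left-out p up to 0.175). Smyd3, a lysine methyltransferase (566.1 kb), was at 11, 11.5, 12.6 and 7.62 CPM at Day 0 and 2.87, 0.892, 1.45 and 2.23 CPM at Day 2 (log2 fold change -2.52, SE 0.39, adjusted p = 0.0169, left-out p up to 0.0925). Lsamp, an adhesion molecule (2197.3 kb), was at 1.4, 0.932, 0.97 and 1.07 CPM at Day 0 and 0.153, 0.189, 0.0329 and 0.0827 CPM at Day 2 (log2 fold change -3.19, SE 0.64, adjusted p = 0.0419, left-out p up to 0.153). Wwox varied little among the Day 2 mice, from 3.46 to 4.3 CPM. Cpq, a carboxypeptidase (511.4 kb), and Sugct, a glutarate CoA-transferase (838.1 kb), fell by 1.59 and 1.16 on the log2 scale (adjusted p = 0.0171 and 0.0479, left-out p up to 0.0979 and 0.183). The 1 gene over 500 kb that rose was Nrg1 (neuregulin 1, a ligand of ErbB receptors), at 4.77, 4.92, 5.48 and 6.49 CPM at Day 0 and 14, 23.2, 19.8 and 11 CPM at Day 2 (log2 fold change 1.65, SE 0.28, adjusted p = 0.0255, left-out p up to 0.127).

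**Figure D5:**
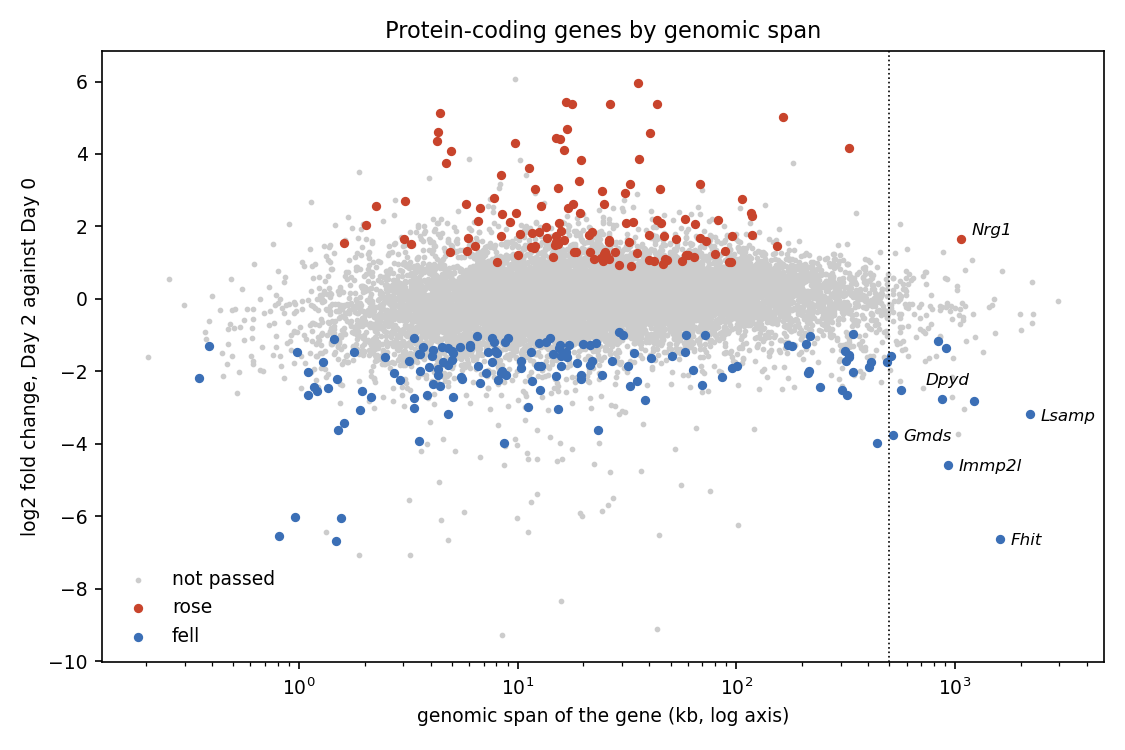
Log2 fold change (Day 2 against Day 0) of protein-coding genes against their genomic span in kb (log axis), with genes that rose or fell in colour and a dotted line at 500 kb. Right of the line 10 genes fell, led by Fhit at -6.63, and 1 rose.

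Of 7 red blood cell genes tested 5 fell, against 1.16% of all genes, and 0 rose, with a median of -6.03. The other 2, which did not pass, had positive log2 fold changes of at most 0.08. Hbb-bs, an adult beta globin gene, was at 441, 637, 1393 and 198 CPM at Day 0 and 20.8, 3.71, 7.15 and 8.64 CPM at Day 2 (log2 fold change -6.05, SE 0.76, adjusted p = 0.00684, left-out p up to 0.0524). Hba-a1, an alpha globin gene, was at 457, 796, 1398 and 220 CPM at Day 0 and 27.5, 3.43, 5.77 and 7.4 CPM at Day 2 (log2 fold change -6.03, SE 0.86, adjusted p = 0.0155, left-out p up to 0.0776). Every Day 0 mouse was above 190 CPM for both genes and every Day 2 mouse under 28 CPM, and Day 2 mouse 1 was the highest treated mouse. The near-identical copies Hbb-bt and Hba-a2 had log2 fold changes of -6.69, SE 0.63, adjusted p = 0.00259, and -6.53, SE 0.95, adjusted p = 0.018 (left-out p up to 0.102 for Hba-a2), and reads may be divided between copies. Alas2, the erythroid enzyme that starts heme synthesis, was at 7.45, 7.49, 5.93 and 8.63 CPM at Day 0 and 0.995, 0.514, 0.296 and 0.579 CPM at Day 2 (log2 fold change -3.63, SE 0.41, adjusted p = 0.004). The number that fell was 3 without Day 2 mouse 2, 2 without Day 2 mouse 3 and 5 without each of the other 6 mice.

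Of 48 nuclear genes of the respiratory chain tested 4 fell and 0 rose, 47 had a negative log2 fold change, and the median was -1.03. The groups did not overlap for 18, all lower, where over all genes 1.16% fell and 6.89% were lower without overlap. Ndufa1, of complex I, was at 169, 237, 333 and 95.8 CPM at Day 0 and 42.9, 41.9, 56.7 and 70 CPM at Day 2 (log2 fold change -1.98, SE 0.37, adjusted p = 0.0346, left-out p up to 0.149). Ndufs4, of the same complex, was at 175, 271, 379.8 and 115 CPM at Day 0 and 47.3, 53.8, 72.5 and 88.4 CPM at Day 2 (log2 fold change -1.85, SE 0.37, adjusted p = 0.0419, left-out p up to 0.175). Uqcrq, of complex III, was at 769, 1529, 2526 and 426 CPM at Day 0 and 329, 211, 285 and 295 CPM at Day 2 (log2 fold change -2.23, SE 0.50, adjusted p = 0.0498, left-out p up to 0.18). Cox6c, of complex IV, was at 746, 1125, 1673 and 392 CPM at Day 0 and 257, 229, 288 and 327 CPM at Day 2 (log2 fold change -1.84, SE 0.41, adjusted p = 0.0499, left-out p up to 0.183). The list took 2.86%, 3.18%, 3.22% and 1.80% of counts in the Day 0 mice and 2.10%, 1.68%, 1.78% and 1.83% in the Day 2 mice, so Day 0 mouse 4 lay within the Day 2 range. In all 4 genes Day 0 mouse 3 was the highest of its group and Day 0 mouse 4 the lowest. The count that fell was 35 without Day 0 mouse 4, 2 without Day 0 mouse 3, 1 without Day 2 mouse 4, 0 without each of the other 5 mice and 0 with an offset for transcript length, under which the median was -0.96.

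Transcript length moved with the same contrast. Protein-coding genes with a transcript of at most 1 kb had a median log2 fold change of -1.10 and 35 of 361 fell, against a median of 0.28 and 7 of 2403 for transcripts over 8 kb. Ribosomal protein genes, which are short, took 3.47%, 4.52%, 5.19% and 1.55% of counts in the Day 0 mice and 2.15%, 2.11%, 2.49% and 1.95% at Day 2. Single genes that lost their call with the offset, beside those given with their lists, were Sesn2, Pidd1, Nfe2l2, Txnrd1, Slc13a1, Trpv6, Cyp4a31, Nrg1, Bcl2a1b, Gadd45g, Ucp1, Cox7a1, mt-Nd3, Stx8, Atp5k and Uqcr11, with an adjusted p of 0.05 to 0.0844. The part of transcript length in the respiratory chain values beyond that offset was not tested. Of the 15 genes of the mitochondrial genome tested, 1 fell, mt-Nd3 of complex I, at 33.9, 24.3, 35.9 and 33.3 CPM at Day 0 and 2.3, 3.95, 8.83 and 13.2 CPM at Day 2 (log2 fold change -2.17, SE 0.47, adjusted p = 0.0473, left-out p up to 0.175). Over all genes 1.16% fell. The median of the 15 was -0.68, and -0.19 without Day 0 mouse 4, where 2 rose and 2 fell. All mitochondrial genes together took 10.2 ± 6.76% (SD, n = 4) of counts at Day 0 and 9.15 ± 3.17% (SD, n = 4) at Day 2 (exact permutation test, two-sided p = 0.857, where 0.0286 is the smallest p that 4 against 4 mice allow). Without Day 0 mouse 4, which had 19.7%, the difference changed from -1.07 to 2.1 percentage points, and without Day 2 mouse 1 it was 0.356.

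Genes of adipocytes fell in 4 of 14 tested members, against 1.16% of all genes, and rose in 0, with a median of -0.63 that was -0.26 without Day 0 mouse 4. Ucp1, the uncoupling protein of brown fat, was at 73.4, 104, 58.1 and 114 CPM at Day 0 and 8.15, 24.9, 8.47 and 32.2 CPM at Day 2 (log2 fold change -2.25, SE 0.46, adjusted p = 0.0426, left-out p up to 0.15). Cidea, a lipid droplet protein, was at 30.5, 67, 26.9 and 50 CPM at Day 0 and 9.76, 9.33, 8.37 and 13.6 CPM at Day 2 (log2 fold change -2.09, SE 0.32, adjusted p = 0.0169, left-out p up to 0.0947). Retn (resistin) was at 40.3, 91.4, 116 and 71.7 CPM at Day 0 and 17.8, 11.7, 19.6 and 25.8 CPM at Day 2 (log2 fold change -2.09, SE 0.35, adjusted p = 0.0221, left-out p up to 0.0965). Fabp4, the fatty acid carrier of fat cells, was at 335, 505, 309.6 and 469.7 CPM at Day 0 and 132, 155, 162 and 192 CPM at Day 2 (log2 fold change -1.34, SE 0.26, adjusted p = 0.0376, left-out p up to 0.169). Adipoq (adiponectin), a defining marker, was at 50, 65.2, 53.2 and 111 CPM at Day 0 and 42.4, 29.9, 47.4 and 60.4 CPM at Day 2 (log2 fold change -0.63, SE 0.31, adjusted p = 0.222). Cox8b and Cox7a1, respiratory chain isoforms of muscle and brown fat, fell by 3.61 and 2.54 on the log2 scale (adjusted p = 0.00921 and 0.0346, left-out p up to 0.0723 and 0.145). The list took 0.166%, 0.255%, 0.161% and 0.311% of counts at Day 0 and 0.164%, 0.124%, 0.145% and 0.165% at Day 2, so Day 0 mice 1 and 3 lay within the Day 2 range or next to it. The part of differing fat content in these calls was not tested. The number that fell was 5 without Day 0 mouse 4, 4 without Day 0 mouse 3, 3 without Day 2 mouse 4, 2 without Day 0 mouse 1 and 0 without each of the other 4 mice.

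Thrsp, a promoter of fatty acid synthesis, fell in every left-out fit and was at 133, 288, 173 and 327 CPM at Day 0 and 24.1, 18.2, 21.2 and 39.1 CPM at Day 2 (log2 fold change -3.17, SE 0.37, adjusted p = 0.00456). Of 26 genes of cholesterol synthesis 2 fell, against 1.16% of all genes, and 0 rose (median -0.45). Insig1, which holds the sterol sensor in the endoplasmic reticulum, was at 35.9, 79.8, 59.7 and 81.2 CPM at Day 0 and 18, 23, 23 and 28.2 CPM at Day 2 (log2 fold change -1.48, SE 0.28, adjusted p = 0.0355, left-out p up to 0.156). Msmo1, a sterol oxidase, was at 34.8, 62.4, 48.6 and 36.7 CPM at Day 0 and 13.5, 19.9, 23.1 and 18.4 CPM at Day 2 (log2 fold change -1.28, SE 0.26, adjusted p = 0.0419, left-out p up to 0.167). The number that fell was 8 without Day 0 mouse 4, 2 without Day 0 mouse 3, 1 without Day 0 mouse 1 and 0 without each of the other 5 mice.

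Genes of fatty acid oxidation and other targets of PPAR receptors rose in 1 of 42 and fell in 0, with a median of 0.36 and 13 members higher without overlap, where over all genes 0.774% rose and 8.31% were higher without overlap. Cyp4a31, a fatty acid hydroxylase with close paralogs, was at 146, 126, 120.4 and 173 CPM at Day 0 and 669.9, 345, 384 and 235 CPM at Day 2 (log2 fold change 1.53, SE 0.33, adjusted p = 0.0474, left-out p up to 0.15). Cyp4a10 was at 221, 229.5, 199 and 207 CPM at Day 0 and 1123, 465, 586 and 332 CPM at Day 2 (log2 fold change 1.55, SE 0.36, adjusted p = 0.0526). Acot1, a thioesterase, was at 87.7, 51.5, 55.1 and 26 CPM at Day 0 and 393, 176, 178 and 90.7 CPM at Day 2 (log2 fold change 1.93, SE 0.47, adjusted p = 0.0533). Cpt1a, which brings fatty acids into mitochondria, was at 153, 129, 164 and 259.8 CPM at Day 0 and 577, 303, 275 and 288 CPM at Day 2 (log2 fold change 1.03, SE 0.33, adjusted p = 0.0907). Day 2 mouse 1 was the highest of all 8 for each of these 4 genes. The number that rose was 10 without Day 0 mouse 4, 2 without Day 2 mouse 4, 1 without Day 0 mouse 3, and 0 without each of the other 5 mice. Other members went down: 14 of the 42 had a negative log2 fold change, the lowest at -4.2. In the fit without Day 0 mouse 4, 3 fell, and the Wald test of DESeq2 called 2 falls beside its 9 rises.

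Liver genes need the reading of single mice. Of 40 hepatocyte genes counted, 39 were highest in Day 0 mouse 2, and 37 were there at least 5 times above every other library. Alb (albumin) was at 16.3, 8148, 174 and 11.5 CPM at Day 0 and 6.24, 6.46, 4.58 and 8.81 CPM at Day 2 (log2 fold change -8.32, SE 2.29, adjusted p = 0.0773). Apoa1 was at 2.31, 1463, 34.9 and 0.662 CPM at Day 0 and 3.67, 2.22, 3.49 and 1.7 CPM at Day 2 (log2 fold change -7.08, SE 2.28, adjusted p = 0.106). Apoa2 was at 8.1, 1672, 91.2 and 6.77 CPM at Day 0 and 8.84, 2.38, 4.81 and 4.59 CPM at Day 2 (log2 fold change -6.43, SE 1.87, adjusted p = 0.0853). Of the 26 members tested 23 had a log2 fold change under -1.5, with a median of -4.52, and 0 passed. Without Day 0 mouse 2 the median was -0.96, 10 members had a log2 fold change under -1.5 and 1 passed, whereas 17 fell without Day 0 mouse 4. Among all genes tested 86 were at least 5 times higher in Day 0 mouse 2 than in every other library, against 0 to 13 for the other 7 libraries. All 86 had a log2 fold change under -1.5 and 0 passed, so the 146 downregulated DEGs hold 0 genes of the hepatocyte list and 0 in which Day 0 mouse 2 was over 4 times above the other Day 0 mice. Of the 146, 100 were highest at Day 0 in mouse 3, 29 in mouse 2, 9 in mouse 4 and 8 in mouse 1.

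Lists of cell fate and repair held few calls beside their p53 targets with all 8 mice, where over all genes 0.774% rose and 1.16% fell. They held more without Day 0 mouse 4, a fit in which 4776 genes passed against 320 with all 8 mice. Of 49 DNA repair genes 1 rose (Ddias) and 0 fell, with a median of 0.37, but without Day 0 mouse 4 15 rose and 1 fell. Xpc, which recognises bulky lesions, was at 35.6, 27.1, 26.7 and 38.6 CPM at Day 0 and 52.8, 49, 49.3 and 50.4 CPM at Day 2 (log2 fold change 0.65, SE 0.20, adjusted p = 0.0831), higher in every Day 2 mouse. Of 38 genes of apoptosis, necroptosis and pyroptosis 1 rose (Bbc3) and 1 fell (median 0.26). The gene that fell was Bcl2a1b, an antiapoptotic gene with near-identical copies, at 0.681, 0.482, 2.51 and 0.41 CPM at Day 0 and 0.0383, 0.0541, 0.0659 and 0.0827 CPM at Day 2 (log2 fold change -3.97, SE 0.84, adjusted p = 0.0461, left-out p up to 0.18). Of that list 8 members rose and 6 fell without Day 0 mouse 4. Among 52 cell cycle genes 2 rose and 1 fell (median 0.19), and 6 rose and 1 fell without Day 0 mouse 4. Wee1, the kinase that delays mitosis, was at 6.96, 8, 5.02 and 13.9 CPM at Day 0 and 29.9, 30.9, 34.1 and 21 CPM at Day 2 (log2 fold change 1.77, SE 0.32, adjusted p = 0.0305, left-out p up to 0.129). Gadd45g, a stress-induced growth inhibitor, was at 144, 312, 199 and 131 CPM at Day 0 and 64.8, 64, 73.8 and 80.9 CPM at Day 2 (log2 fold change -1.47, SE 0.29, adjusted p = 0.0408, left-out p up to 0.173). Mki67, the marker of proliferating cells, was at 2.35, 3.44, 1.31 and 3.4 CPM at Day 0 and 1.07, 0.541, 2.34 and 1.45 CPM at Day 2 (log2 fold change -0.97, SE 0.51, adjusted p = 0.258).

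The difference between the sexes in the response at Day 2 was tested as an interaction over 16 libraries. No gene passed in edgeR (0 of 17467, 0.0%), 738 genes had an unadjusted p under 0.05, and the Wald test of DESeq2 gave 28. The male contrast used 4 male mice per day and shares no library with the female one. Cdkn1a had a log2 fold change of 4.32 in females and 3.33 in males (SE 0.79), and Cxcl1 of 3.50 and 3.91 (SE 0.76). For Fhit the values were -6.63 and -3.24 (SE 1.0), with an interaction of -3.35, an unadjusted p of 0.0111 and an adjusted p of 1.0. In the edgeR test of males alone the adjusted p was 0.0535 for Cdkn1a, 0.0402 for Cxcl1 and 0.0832 for Fhit. At Day 3 in females, a contrast that uses the same Day 0 mice, Fhit was at -2.94 and did not pass (edgeR, adjusted p = 0.106). Cdkn1a was at 4.2, Lcn2 at 4.4 and Havcr1 at 5.86 in that contrast (adjusted p = 0.0465 for each).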

How the data were processed

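Kidney RNA of 8 female mice (4 at Day 0, 4 at Day 2) was analysed from the read counts per gene that the authors deposited for 32 libraries. The study's methods name GRCm38 and paired-end reads. The submitters' processing notes name GRCm39 (mm39), HTSeq and DESeq2, without versions. Gene starts and ends in the deposited counts match the GENCODE annotation of GRCm38 for 53499 of 54409 shared gene IDs (98.3%), and coordinates are given on that build. The aligner and strandedness are not given in the sources used here, so reads of overlapping genes cannot be told apart. The deposited FPKM values were not used. CPM are counts scaled to a fixed library size after TMM.

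The 2 groups were fitted with edgeR 4.0.16 in R 4.3.3 (TMM, filterByExpr, quasi-likelihood test, Benjamini-Hochberg adjustment), each mouse as 1 replicate. No 2 libraries held the same counts. DEGs passed at an adjusted p under 0.05 with a log2 fold change over 1.5 in size. SE is that of the log2 fold change. The interaction was fitted on 16 libraries, and the mitochondrial share was tested by exact permutation over 70 arrangements. Alternatives were the DESeq2 1.42.0 Wald test and size factors, limma 3.58.1 voom, other filters, 1 fit over all groups, a replicate block, a transcript length offset and each mouse left out. The scripts were tested on simulated data. Tables and plots used data.table (version 1.17.8), Python 3.11.15, pandas 2.3.3 and matplotlib 3.10.9. Total counts per library ranged from 21919618 to 35961325.

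The comparison, its gene lists and the rule for naming genes were chosen with earlier results of these data known. Named are the genes of the study's text, the 15 most upregulated and the 15 most downregulated protein-coding DEGs without overlap, up to 5 passing members of each list in each direction (or the 3 with the highest CPM), and anchors of each nephron segment and of p53. Genes passing in every left-out fit, genes spanning over 500 kb that fell and further list members were named after their values were seen. A list of clock genes and some single genes are not reported here.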

Additional observations from a re-analysis of the deposited data

Results flagged for a closer look

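In 28 of 346 groups of 4 values (the genes named above at Day 0 and at Day 2, and list shares), 1 mouse lay further from the others than Dixon's 95% limit for 4 samples. Chance alone gives about 5% of groups.

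Day 0 mouse 2 was high in 8 of them. Its hepatocyte share was 1.94% and its adrenal cortex share 0.0526%. Its levels were 8148 CPM for Alb, 1463 CPM for Apoa1, 1672 CPM for Apoa2, 124 CPM for Cyp21a1, 57.3 CPM for Star and 354 CPM for Col18a1. All but the last belong to lists of liver or adrenal cortex.

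Day 2 mouse 1 was high for Umod (2373 CPM), Aqp2 (1103 CPM), Cpt1a (577 CPM), Podxl (422 CPM), Plvap (555 CPM), Eng (293 CPM), Krt18 (66.3 CPM), Hba-a1 (27.5 CPM) and Hba-a2 (2.56 CPM). It was low for Il13ra1 (19.4 CPM) and for the p53 target Rrm2b (9.91 CPM). Day 2 mouse 4 was high for Cpq (16.2 CPM) and low for Trpv6 (2.52 CPM).

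Day 0 mouse 4, the control nearest to the Day 2 libraries, was high for Timp3 (1125 CPM) and Atf3 (10.7 CPM) and low for Nqo1 (23 CPM). Day 0 mouse 3 was high for Zmat3 (29.3 CPM) and Bcl2a1b (2.51 CPM) and low for Hmox1 (2.28 CPM). Day 0 mouse 1 was high for Slc7a13 (63.1 CPM).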

How the results depend on the processing

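Counts of genes called depended on the test and on single mice. With the listed settings, genes passing, DEGs, DEGs up and DEGs down were 2138, 1052, 295 and 757 in the DESeq2 Wald test, 1059, 532, 142 and 390 with no filter on low counts, 3976, 1149, 365 and 784 in 1 fit over all 8 groups, and 8269, 1771, 980 and 791 with limma voom and sample quality weights, against 320, 234, 88 and 146 in the report. With at least 10 counts in every library 904 genes passed, with 441 DEGs and 342 down. An offset for transcript length gave 208 genes passing and 93 DEGs down, and leaving out Day 0 mice 2 and 3 together gave 166 passing. Both were chosen after seeing the data. With each mouse left out in turn, between 21 and 4776 genes passed, with 21 to 1766 DEGs, 15 to 799 up and 6 to 967 down. The interaction of sex and day gave 28 genes in the DESeq2 Wald test and 0 to 1 with a female mouse left out. The difference in mitochondrial share ranged from -2.98 to 2.1 percentage points with 1 mouse left out, and turned positive without Day 0 mouse 4 (2.1) or Day 2 mouse 1 (0.356). The cause was not tested. The mouse number as a replicate block gave 52 genes passing, 52 DEGs, 28 up and 24 down, and 0 genes in the interaction, but mice of 1 number share only the number, since the correlations of their deviations were 0.028, -0.181, 0.036 and 0.053, so no pairing was assumed. Of the 108 named genes that passed, 38 passed with the block, 108 with the DESeq2 Wald test and 79 with the length offset. DESeq2's size factors, leaving out mitochondrial, rRNA-like and hepatocyte genes, and a fold threshold of 1 kept all counts within 1.5 times. Genes with at most 3 counts per library are near what these totals can detect.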

Other observations

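Podocyte genes had 0 of 18 tested members passing in the edgeR fit, with a median log2 fold change of 0.40 against 0.03 over all genes. Without Day 0 mouse 4, 10 of them rose and 1 fell, and the median was 0.70. Over all genes 4776 passed in that fit, against 320 with all mice. The counts given here without Day 0 mouse 4 are to be read against that larger number. Npnt (nephronectin), Podxl (podocalyxin) and Col4a4, a chain of the glomerular basement membrane, had log2 fold changes of -0.47, 0.77 and 0.47 (adjusted p = 0.244, 0.118 and 0.258). Among 27 endothelial genes 0 passed (median 0.16), while without Day 0 mouse 4 6 rose and 6 fell (median 0.50), and Pecam1 (CD31) was at 53.4, 40.4, 21 and 65.8 CPM at Day 0 and 81.5, 58.3, 54.6 and 48.2 CPM at Day 2 (log2 fold change 0.42, SE 0.33, adjusted p = 0.429). Eng (endoglin) was at 234, 336, 381 and 198 CPM at Day 0 and 293, 160.4, 148 and 144 CPM at Day 2, and Plvap, of fenestrated vessels, at 285, 257, 194 and 202 CPM at Day 0 and 555, 223, 179 and 171 CPM at Day 2. Of 36 matrix genes 0 passed (median 0.10), against 9 that rose and 2 that fell without Day 0 mouse 4 (median 0.33), with Timp3, an inhibitor of metalloproteinases, at 243, 163, 159.6 and 1125 CPM at Day 0 and 484, 441, 338 and 514 CPM at Day 2 and Col18a1 at 236, 354, 229 and 222 CPM at Day 0 and 461, 281, 296 and 221 CPM at Day 2. Day 0 mouse 4 held the high value of Timp3, and Day 2 mouse 1 that of Plvap.

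Stress and hormone responses gave single calls with all 8 mice, where over all genes 0.774% rose and 1.16% fell. Their counts without Day 0 mouse 4 come from a fit in which 4776 genes passed, against 320 with all 8 mice. Fkbp5, a classical target of the glucocorticoid receptor, was the 1 of 18 genes of that list that rose (median 0.31, with 6 rises and 1 fall without Day 0 mouse 4), at 45.7, 32.7, 23 and 26.7 CPM at Day 0 and 166, 178, 197 and 80.5 CPM at Day 2 (log2 fold change 2.28, SE 0.33, adjusted p = 0.0128, left-out p up to 0.0669), while Tsc22d3 of the same list was at 72.5, 113, 65.5 and 58.9 CPM at Day 0 and 123, 110.1, 101 and 62.9 CPM at Day 2 (log2 fold change 0.36, SE 0.28, adjusted p = 0.431). Of 34 immediate early genes 17 rose without Day 0 mouse 4 (median 0.93), and with all mice Klf10 alone rose (median 0.50), at 7.04, 5.94, 2.11 and 5.83 CPM at Day 0 and 32.8, 23.6, 24 and 11.9 CPM at Day 2 (log2 fold change 2.13, SE 0.40, adjusted p = 0.0346, left-out p up to 0.132). Fos and Egr1 overlapped between groups, with Egr1 at 7.72, 30.1, 28.8 and 92.3 CPM at Day 0 and 30.7, 56.8, 98.3 and 109 CPM at Day 2 (log2 fold change 0.89, SE 0.65, adjusted p = 0.411). Atf3 was at 1.59, 1.16, 0 and 10.7 CPM at Day 0 and 4.71, 8.57, 10.6 and 5.95 CPM at Day 2 (log2 fold change 1.14, SE 1.03, adjusted p = 0.508), where Day 0 mouse 4 was the highest of all 8. In the integrated stress response 1 of 33 rose (Gdf15) and 1 fell (median -0.13), with 3 of each without Day 0 mouse 4, the latter Nupr1, a stress-induced chromatin protein, at 47.8, 55.5, 46 and 50.5 CPM at Day 0 and 19.7, 23.8, 27.9 and 23.7 CPM at Day 2 (log2 fold change -1.07, SE 0.19, adjusted p = 0.0314, left-out p up to 0.152). Of 37 interferon-stimulated genes 1 rose (Cxcl10, median 0.04), and 3 rose and 8 fell without Day 0 mouse 4 (median -0.08). Of 11 genes for ligands and partners of the EGF receptor 1 rose (Nrg1, median 0.20), 4 rose without Day 0 mouse 4 (median 0.69), and Egf itself was at 795, 639, 669 and 583 CPM at Day 0 and 644, 502, 444 and 904 CPM at Day 2 (log2 fold change -0.11, SE 0.29, adjusted p = 0.842).

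Transcripts of neighbouring tissues were given as values. Of 4 adrenal cortex genes tested 0 passed (median -1.55, and -0.48 without Day 0 mouse 2), with Star, which brings cholesterol into mitochondria, at 3.33, 57.3, 5.88 and 4.06 CPM at Day 0 and 2.68, 4.44, 4.15 and 3.68 CPM at Day 2 and Cyp21a1, not tested, at 0, 124, 5.31 and 0.284 CPM at Day 0 and 0.23, 0.243, 0.264 and 0.165 CPM at Day 2. Day 0 mouse 2 was the highest for both. The lists of adrenal medulla (2 tested, median -0.71), skeletal muscle (5 tested, median -0.90) and exocrine pancreas (2 tested, median -1.86) had 0 members passing, and 1 fall each without Day 0 mouse 4. That fit passed 4776 genes, against 320 with all mice. Lars2, which holds a stretch resembling ribosomal RNA, was at 692, 676, 246 and 535 CPM at Day 0 and 2356, 1205, 1716 and 1915 CPM at Day 2 (log2 fold change 1.74, SE 0.38, adjusted p = 0.0493, left-out p up to 0.152), the 1 rise of 3 tested genes of that kind, all of which rose without Day 0 mouse 4 and 0 with an offset for transcript length.

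Further genes that fell, chosen after their values were seen, include Stx8, a syntaxin, at 51.3, 79.9, 157 and 24.7 CPM at Day 0 and 15.1, 11.5, 14.2 and 17.8 CPM at Day 2 (log2 fold change -2.42, SE 0.47, adjusted p = 0.0388, left-out p up to 0.167). Ulk4, a pseudokinase, was at 2.8, 2.83, 3.59 and 2.17 CPM at Day 0 and 0.574, 0.297, 0.494 and 0.455 CPM at Day 2 (log2 fold change -2.64, SE 0.42, adjusted p = 0.0193, left-out p up to 0.101), and Fam25c was at 20.6, 58.5, 143 and 12.6 CPM at Day 0 and 2.83, 2.65, 5.21 and 4.88 CPM at Day 2 (log2 fold change -3.91, SE 0.74, adjusted p = 0.0416, left-out p up to 0.175). Cd52 and Aif1, both of leukocytes, fell by 2.51 and 2.70 on the log2 scale (adjusted p = 0.0298 and 0.0378, left-out p up to 0.134 and 0.167).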
